A study of Mus musculus with 8 samples.

Results

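The 28 Hox genes with a row in both deposited tables were followed across 8 single mouse follicles. They were chosen by symbol, as members of the Hoxa, Hoxb, Hoxc or Hoxd cluster, from 21997 genes listed in both tables. The family was picked because Hoxd10 had counts in small antral follicles of transplanted origin and none in the preantral ones, so Hoxd10 is described without a test wherever a follicle of transplanted origin enters. The clusters contributed 8 Hoxa, 8 Hoxb, 6 Hoxc and 6 Hoxd genes. RefSeq lists 39 Hox genes for GRCm38, and the other 11 are not analysed here: Hoxa6, Hoxa11, Hoxa13, Hoxb1, Hoxb13, Hoxc11, Hoxc12, Hoxc13, Hoxd1, Hoxd12 and Hoxd13.

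The study set small antral follicles (SAF), in which a fluid-filled cavity has begun to form, against preantral follicles (PF), which have none. Per the labels, follicles came from female germline stem cells that had been transplanted (TF) or from wild type mice (WT), all of strain C57BL/6. The groups were SAF-TF, PF-TF, SAF-WT and PF-WT, with 2 libraries each, 1 follicle per library, separated from the ovary with a needle. The labels name no altered gene and no drug. No label gives the animals' age or describes the hosts of the transplants, and none states what share of a TF follicle is of transplanted origin. Whether both follicles in a group are from different animals is also unstated, so every p-value below measures only the spread between these follicles, which may be technical.

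Hox genes encode homeodomain transcription factors that give cells a position along the body axis. They sit in 4 clusters, and genes at matching places in different clusters form paralog groups with closely similar DNA-binding domains. Their proteins bind DNA together with PBX and MEIS partners, while trithorax complexes keep the clusters active and Polycomb complexes keep them silent. In the female reproductive tract, Hoxa9 and Hoxa10 are known for patterning the oviduct and the uterus.

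The libraries held between 7656108 and 9805287 counts. A library with no count of a gene allows up to 3 counts, the count floor used here, which equals 0.301 to 0.394 CPM (read counts scaled to library size with TMM factors) depending on the library. Floors and counting intervals cover counting error only, since these reads carry no molecular identifiers. All 14 oocyte markers and all 10 granulosa markers were above the floor in both libraries of each group. PF-TF replicate 1 had counts for the fewest genes, 18796, against up to 20694 in the other libraries.

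In RefSeq for GRCm38 the members lay on chromosome 6 (Hoxa, 52155367 to 52240854, minus strand), chromosome 11 (Hoxb, 96271330 to 96354020, plus strand), chromosome 15 (Hoxc, 102966796 to 103036856, plus strand) and chromosome 2 (Hoxd, 74679558 to 74748271, plus strand). The homeobox, which encodes the DNA-binding homeodomain, had 180 bases and was found in the coding sequence of all 28 members. Paralog groups 9 and 10 carry the largest difference between sources reported below, so sequences of 5 of their members show how distinct the counted genes are. The stretches below are the last 60 bases of the homeobox in GENCODE M21 transcripts (GRCm38), 5′ to 3′. Capitals mark bases that differ from Hoxc9 in Hoxb9, and from Hoxd10 in Hoxc10 and Hoxa10.
Hoxc9: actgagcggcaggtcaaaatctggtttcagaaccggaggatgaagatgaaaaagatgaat
Hoxb9: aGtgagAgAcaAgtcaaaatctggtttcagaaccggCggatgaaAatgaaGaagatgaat
Hoxd10: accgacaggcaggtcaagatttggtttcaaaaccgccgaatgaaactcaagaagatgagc
Hoxc10: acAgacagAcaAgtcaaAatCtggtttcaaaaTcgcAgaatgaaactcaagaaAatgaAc
Hoxa10: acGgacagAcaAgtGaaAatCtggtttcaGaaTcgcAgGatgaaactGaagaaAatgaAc
Over the whole homeobox, Hoxb9 shared 151 of 180 bases with Hoxc9, and Hoxc10 and Hoxa10 shared 149 and 142 with Hoxd10. The longest run of identical coding bases between any pair of the 28 members, over 378 pairs, was 47 bases. Shared exons are a separate limit. Counts of Hoxd3 and Hoxd4 (388 shared exon bases) and of Hoxc5 and Hoxc10 (166) are uncertain, since each pair overlaps on the same strand. Without strand information, counts of Hoxd3, Hoxd4 and Hoxb5 are also uncertain against their antisense genes.

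Small antral follicles held more Hox RNA than preantral ones in both sources. Summed over the 28 members, SAF-TF libraries had 229 and 223 CPM, against 34.3 and 36.7 CPM in PF-TF. SAF-WT libraries had 254 and 212 CPM, against 59.0 and 97.0 CPM in PF-WT. No SAF library overlapped a PF library, and both PF-TF libraries lay below both PF-WT libraries. These sums include Hoxd10. Without it they were 190 and 182 CPM in SAF-TF, 34.3 and 36.7 CPM in PF-TF, 214 and 178 CPM in SAF-WT, and 57.3 and 95.9 CPM in PF-WT. In whole follicles, fewer cells of a type and less RNA per cell cannot be told apart.

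Markers of other cells moved with the same contrasts. All 10 ovarian stroma markers rose in SAF in both sources, and their sum was 1650 to 2390 CPM in SAF-TF, against 49.5 to 127 CPM in PF-TF, and 6560 to 9510 CPM in SAF-WT, against 223 to 559 CPM in PF-WT. All 8 smooth muscle markers rose in TF and 5 of 8 in WT; their sum was 1250 to 1940 CPM in SAF-TF, against 88.9 to 100 CPM in PF-TF, and 2580 to 3060 CPM in SAF-WT, against 191 to 622 CPM in PF-WT. Of 7 tested theca markers, 4 rose in TF and 7 in WT. Oocyte markers fell, 13 of 14 in TF and 8 of 14 in WT, with sums of 253 to 479 CPM in SAF-TF, against 16800 to 19100 CPM in PF-TF, and 569 to 2740 CPM in SAF-WT, against 8250 to 10500 CPM in PF-WT. All 10 luteal markers rose in TF and 5 in WT, while all 8 macrophage markers rose in TF and 0 in WT. The theca and luteal lists share the gene Lhcgr. Of 10 granulosa markers, 2 fell in TF and 5 in WT. Over all tested genes, 18.2% rose and 25.0% fell in TF, and 12.7% rose and 22.5% fell in WT. The part of these marker changes in the Hox stage differences was not tested.

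**Figure D1:**
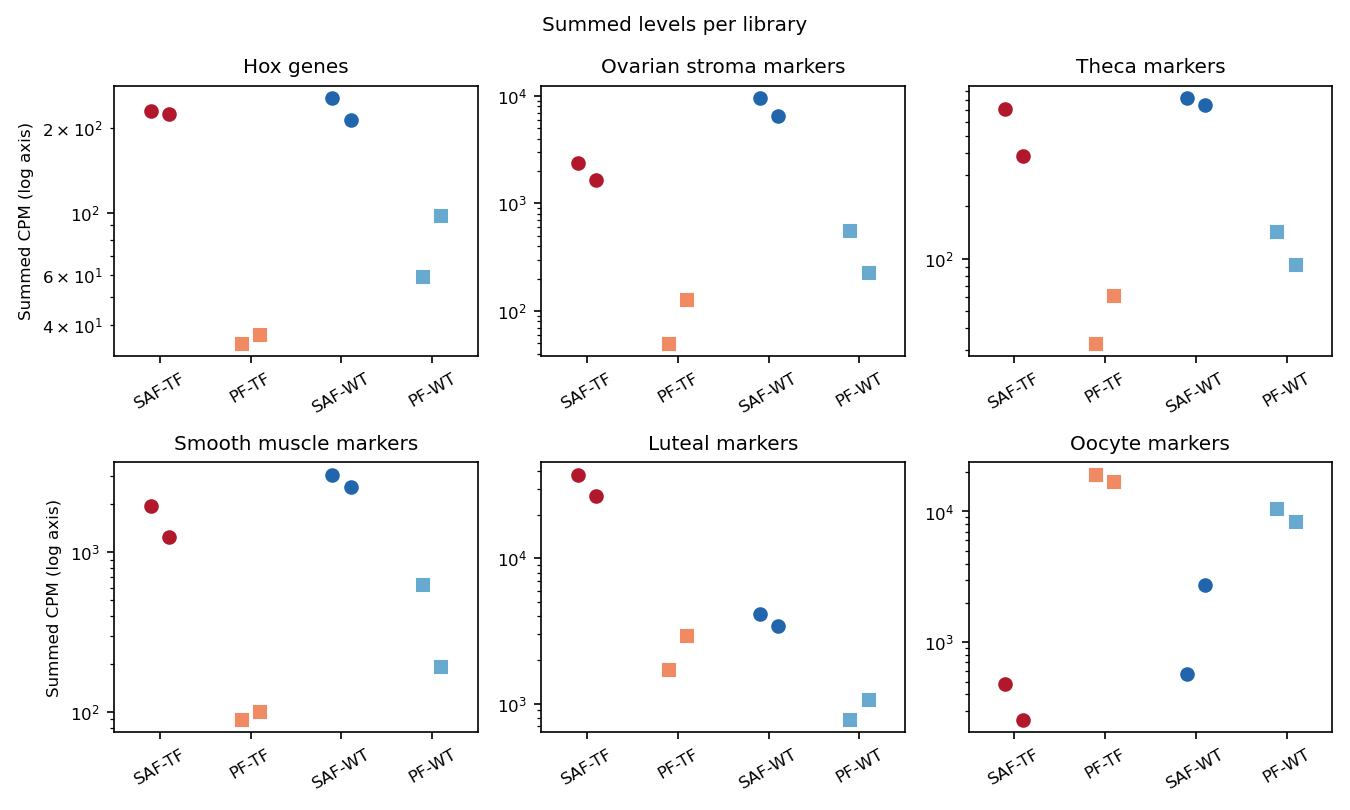
Summed CPM (log axes, each panel its own) of the 28 Hox genes and of 5 marker lists, with 1 point per library. The Hox, stroma, theca and smooth muscle panels have SAF above PF in both sources, the oocyte panel the reverse, and the luteal panel has SAF-TF above the other 3 groups.

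**Figure D2:**
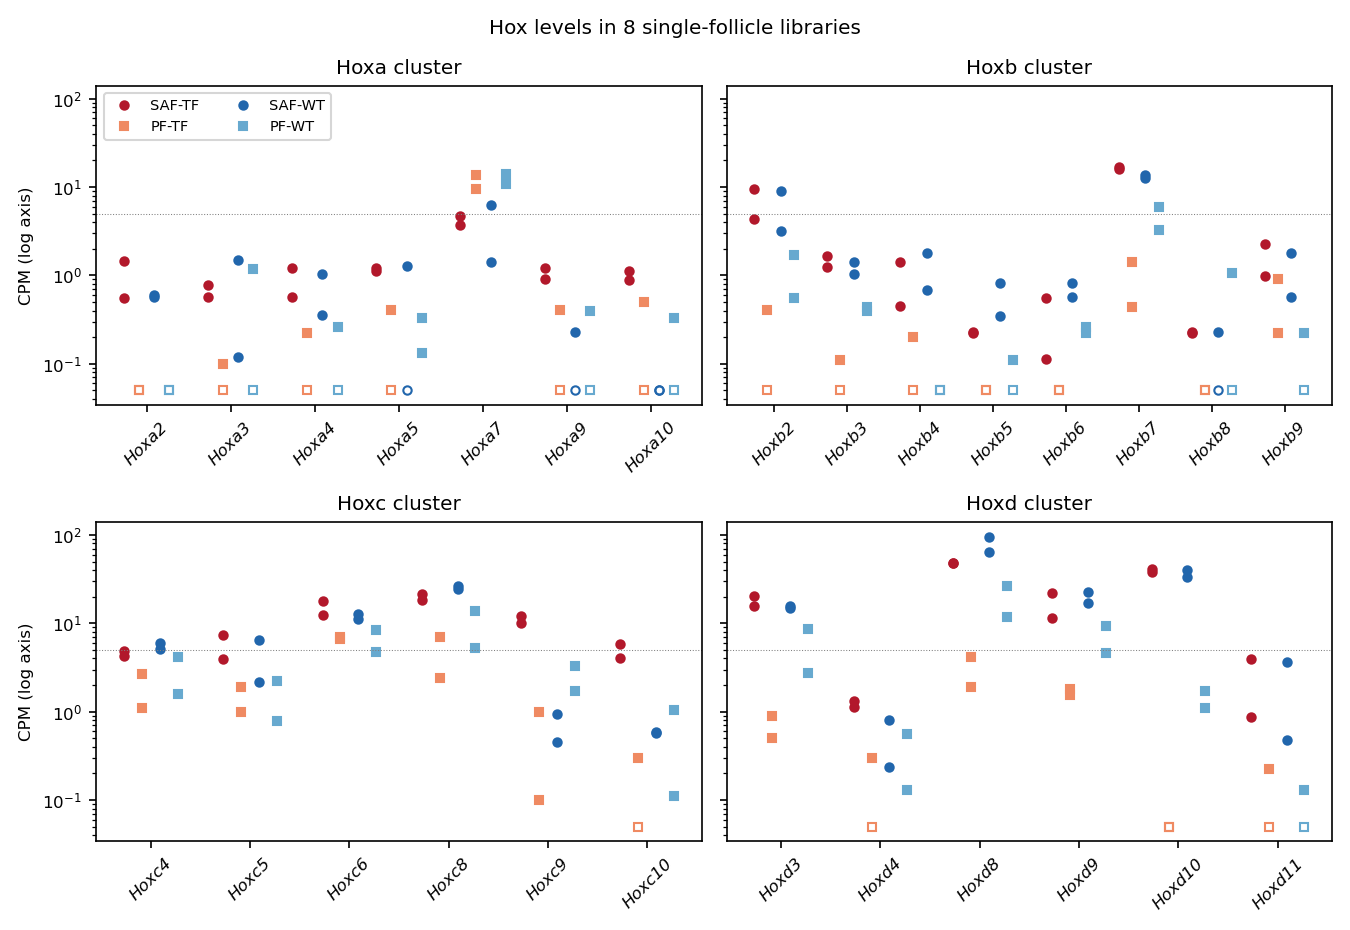
CPM (log axis) of 27 of the 28 Hox genes by cluster, with 1 point per library; circles are SAF and squares PF, and open points at the bottom mark libraries with no count. The dotted line is at 5 CPM, which 12 members reached on average in at least 1 group, and most squares lie below the circles except those of Hoxa7.

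More members were above the floor in SAF than in PF. With more than 3 counts required in both libraries, 24 members passed in SAF-TF, 9 in PF-TF, 19 in SAF-WT and 12 in PF-WT. The same 9 passed in all 4 groups: Hoxa7, Hoxb7, Hoxc4, Hoxc5, Hoxc6, Hoxc8, Hoxd3, Hoxd8 and Hoxd9. Hoxb5 and Hoxb8 were among the members that passed in none. Among Hoxa members, 7 of 8 passed in SAF-TF, 1 in PF-TF, 2 in SAF-WT and 1 in PF-WT, and the one found everywhere was Hoxa7. Among Hoxb members the numbers were 5, 1, 6 and 2 in the same order of groups, among Hoxc members 6, 4, 6 and 5, and among Hoxd members 6, 3, 5 and 4. No count at all was found for 14 and 9 members in the PF-TF libraries, against 5 and 7 in the PF-WT libraries, 0 in both SAF-TF libraries, and 1 and 5 in the SAF-WT libraries. Of all 21997 genes, 18796 and 20313 had a count in PF-TF and 20645 and 20694 in PF-WT. In SAF the numbers were 20118 and 20076 in SAF-TF and 19458 and 19897 in SAF-WT. The share of all genes above the floor in both libraries was not counted. The 16 members under 5 CPM in every group included Hoxa2 to Hoxa5, Hoxa9, Hoxa10, Hoxb3 to Hoxb6, Hoxb8, Hoxb9, Hoxc10, Hoxd4 and Hoxd11. The PF-TF count came to 15 where 1 library above the floor sufficed, and the SAF-WT count to 11 where 10 counts were required.

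Levels between genes were compared per kilobase of the longest GENCODE transcript. In SAF-TF, Hoxd10 ranked first at 21.8 ± 0.94 CPM per kb and Hoxd8 second at 18.1 CPM per kb in both libraries (SD, n = 2). In SAF-WT the order was Hoxd8 at 30.1 ± 8.5 and Hoxd10 at 20.1 ± 2.4 CPM per kb, with no overlap between their libraries. In PF-TF, Hoxa7 ranked first at 5.80 ± 1.5 CPM per kb and Hoxc6 second at 4.29 ± 0.12. In PF-WT, Hoxd8 was first at 7.18 ± 3.9 and Hoxa7 second at 6.12 ± 1.1 CPM per kb, with overlapping libraries. Hoxc9 ranked 8th in SAF-TF and 23rd in SAF-WT.

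By paralog group, group 8 had the highest sum in every SAF library, and group 10 the next highest. In both PF-TF libraries group 7 was highest. Group 8 (Hoxb8, Hoxc8, Hoxd8) summed to 66.3 and 69.3 CPM in SAF-TF, against 8.97 and 6.52 CPM in PF-TF, and to 122 and 87.6 CPM in SAF-WT, against 18.0 and 40.0 CPM in PF-WT. Group 10 (Hoxa10, Hoxc10, Hoxd10) summed to 43.3 and 47.8 CPM in SAF-TF, against 0 and 0.803 CPM in PF-TF, and to 40.2 and 34.1 CPM in SAF-WT, against 2.76 and 1.55 CPM in PF-WT. Most of the SAF sum of group 10 was Hoxd10, whose TF values led to the choice of the family. Without Hoxd10 the group had 4.95 and 6.99 CPM in SAF-TF, against 0 and 0.803 CPM in PF-TF, and 0.574 and 0.592 CPM in SAF-WT, against 1.05 and 0.444 CPM in PF-WT. Group 7 (Hoxa7, Hoxb7), whose members had opposite orders of SAF and PF, had 19.7 and 21.7 CPM in SAF-TF, 9.97 and 15.3 CPM in PF-TF, 18.8 and 14.9 CPM in SAF-WT, and 17.2 and 16.6 CPM in PF-WT. Group 11, with Hoxd11 as its single member here, stayed under 5 CPM in every library.

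Hoxd10, which with its cluster neighbours patterns the limb and the lumbar spinal cord, had 38.4 and 40.8 CPM in SAF-TF, against 0 and 0 CPM in PF-TF. In WT follicles it had 39.6 and 33.5 CPM in SAF-WT, against 1.71 and 1.11 CPM in PF-WT. The SAF libraries of both sources lay close together, and both PF groups lay far below them. Against a floor of 3 counts per library in PF-TF, the SAF-TF level was at least 125-fold higher. The wild type contrast was not used in choosing the family. There Hoxd10 rose in SAF-WT by 4.70 ± 0.38 on the log2 scale (SE; adjusted p = 8.8e-05, edgeR quasi-likelihood test), with both libraries higher.

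Hoxd8, the neighbour of Hoxd9 in the cluster, had 47.6 and 47.6 CPM in SAF-TF, against 1.88 and 4.11 CPM in PF-TF. It had 95.1 and 63.3 CPM in SAF-WT, against 11.7 and 26.1 CPM in PF-WT. Every SAF library lay above every PF library. Hoxd8 rose with stage by 3.97 ± 0.49 (adjusted p = 0.000242) in TF and by 2.06 ± 0.43 (adjusted p = 0.0057) in WT, both on the log2 scale. Without SAF-WT replicate 1 the WT change was 1.73, with an adjusted p of 0.0502.

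Hoxd8 and Hoxd10 had the highest SAF levels, so the 250 bases before their RefSeq starts (GRCm38.p6) are shown, with matches to the motifs searched in capitals. The Hoxd10 stretch is chr2:74691641-74691890 and the Hoxd8 stretch is chr2:74704365-74704614, both on the plus strand.
Hoxd10: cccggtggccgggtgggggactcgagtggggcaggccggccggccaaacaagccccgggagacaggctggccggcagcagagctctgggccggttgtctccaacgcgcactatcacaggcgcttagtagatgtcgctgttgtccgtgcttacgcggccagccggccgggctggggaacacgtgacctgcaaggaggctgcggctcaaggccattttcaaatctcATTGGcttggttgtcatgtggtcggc
Hoxd8: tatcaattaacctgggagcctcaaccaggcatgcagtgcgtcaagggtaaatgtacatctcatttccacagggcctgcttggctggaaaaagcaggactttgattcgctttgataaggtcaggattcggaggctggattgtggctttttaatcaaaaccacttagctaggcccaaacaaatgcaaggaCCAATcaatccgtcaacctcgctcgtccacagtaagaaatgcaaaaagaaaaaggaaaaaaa
Both strands were searched. Each stretch held a single CCAAT box, written ATTGG in Hoxd10, where it lies on the reverse strand, and forward in Hoxd8. That motif was in 8 of 17 promoter entries of 15 members (47.1%), against 33.8% of 32851 mouse promoters. The other motifs searched had no match in either stretch. The TATA box TATAAA was in 3 of the 17 entries, against 12.4% of all promoters. The GC box GGGCGG was in 6 entries, against 32.7% of all promoters. The HOX-PBX motif TGATTNAT was in 2 entries, against 2.82% of all promoters. The MEIS motif TGACAG was in 2 entries, against 15.9% of all promoters. The NR5A motif CAAGGTCA was in none, against 1.33% of all promoters. The Hoxd10 window lies inside the RefSeq span of the gene. The Hoxd10 stretch had 20 CpG dinucleotides and the Hoxd8 stretch 6, with a median of 12 over the members' entries and 6 over all promoters.

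Hoxd9 and Hoxd3 completed the Hoxd members of at least 5 CPM. Hoxd9, a limb patterning gene, had 21.9 and 11.6 CPM in SAF-TF, against 1.55 and 1.81 CPM in PF-TF, and 22.6 and 16.8 CPM in SAF-WT, against 4.60 and 9.32 CPM in PF-WT. Its SAF and PF libraries did not overlap in either source, and it rose by 3.31 ± 0.51 (adjusted p = 0.000823) in TF and by 1.49 ± 0.46 (adjusted p = 0.0303) in WT. The WT call of Hoxd9 was lost with PF-WT replicate 1, SAF-WT replicate 1 or SAF-WT replicate 2 left out (adjusted p of 0.103, 0.168 and 0.0587). Hoxd3, known for shaping the first neck vertebrae, had 15.9 and 20.6 CPM in SAF-TF, against 0.886 and 0.502 CPM in PF-TF, and 15.8 and 14.8 CPM in SAF-WT, against 2.76 and 8.54 CPM in PF-WT. Hoxd3 was again higher in every SAF library. Hoxd3 rose by 4.70 ± 0.62 (adjusted p = 0.000346) in TF. In WT its change was 1.43 ± 0.51, with an adjusted p of 0.0528. Hoxd11, at the far end of the members in this cluster, had 8 and 35 counts in SAF-TF, against 2 and 0 in PF-TF, and 32 and 4 in SAF-WT, against 1 and 0 in PF-WT. Its SAF libraries differed widely in both sources. No PF library reached the low-count filter's 10 counts, so the filter admitted Hoxd11 through SAF alone. Its tests carry that limit. The ratio was 22.7 in TF (counting interval 5.92 to 194, adjusted p = 0.0447) and 34.9 in WT (5.87 to 1420, adjusted p = 0.0514). The TF call of Hoxd11 was lost with any library left out except PF-WT replicate 1 and SAF-WT replicate 2, with adjusted p-values up to 0.296.

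In the TF stage contrast, 11 of 19 tested members rose in SAF-TF and none fell, where 18.2% of all 17925 tested genes rose, 25.0% fell and 43.2% changed either way. Called members were Hoxb2, Hoxb3, Hoxb7, Hoxc6, Hoxc8, Hoxc9, Hoxc10, Hoxd3, Hoxd8, Hoxd9 and Hoxd11. The median log2 change of the 19 was 3.31, against -0.08 over all tested genes. Of 27 members, tested or not, 26 had both SAF-TF libraries above both PF-TF libraries, which held for 33.7% of all genes, and Hoxa7 alone had the opposite order, which held for 35.5%. Only 20 of the 28 members passed the low-count filter. A member that passed through its SAF level alone was selected for the level under test, so neither count nor median speaks for the others. Without SAF-TF replicate 2 the number called was 6.

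In the WT stage contrast, 5 of 20 tested members rose in SAF-WT (Hoxb4, Hoxb7, Hoxd8, Hoxd9 and Hoxd10) and none fell, where 12.7% of tested genes rose, 22.5% fell and 35.1% changed either way. The median log2 change of the members was 1.45, against -0.20 over all tested genes. The filter's limit given for TF holds here too, since Hoxb4 reached 10 counts in SAF libraries alone. Of the 28 members, 17 had both SAF-WT libraries above both PF-WT libraries (28.8% of all genes), and 3, Hoxa7 and Hoxc9 among them, had both below (37.2%). The WT count depended on scaling and on single libraries: it was 8 with RLE factors, 9 by DESeq2 and 10 with the authors' scale factors, all higher, where 15.5%, 15.9% and 20.1% of tested genes were higher in these fits. Without PF-TF replicate 1 or 2 it was 10, of which 9 were higher and Hoxc9 was lower (adjusted p of 0.045 and 0.0445). With SAF-TF replicate 1 or 2 or SAF-WT replicate 2 left out it was 3, all higher. It was 2 when PF-WT replicate 1 was left out, both higher, and 2 when SAF-WT replicate 1 was left out, Hoxd10 higher and Hoxa7 lower (adjusted p = 0.0118).

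**Figure D3:**
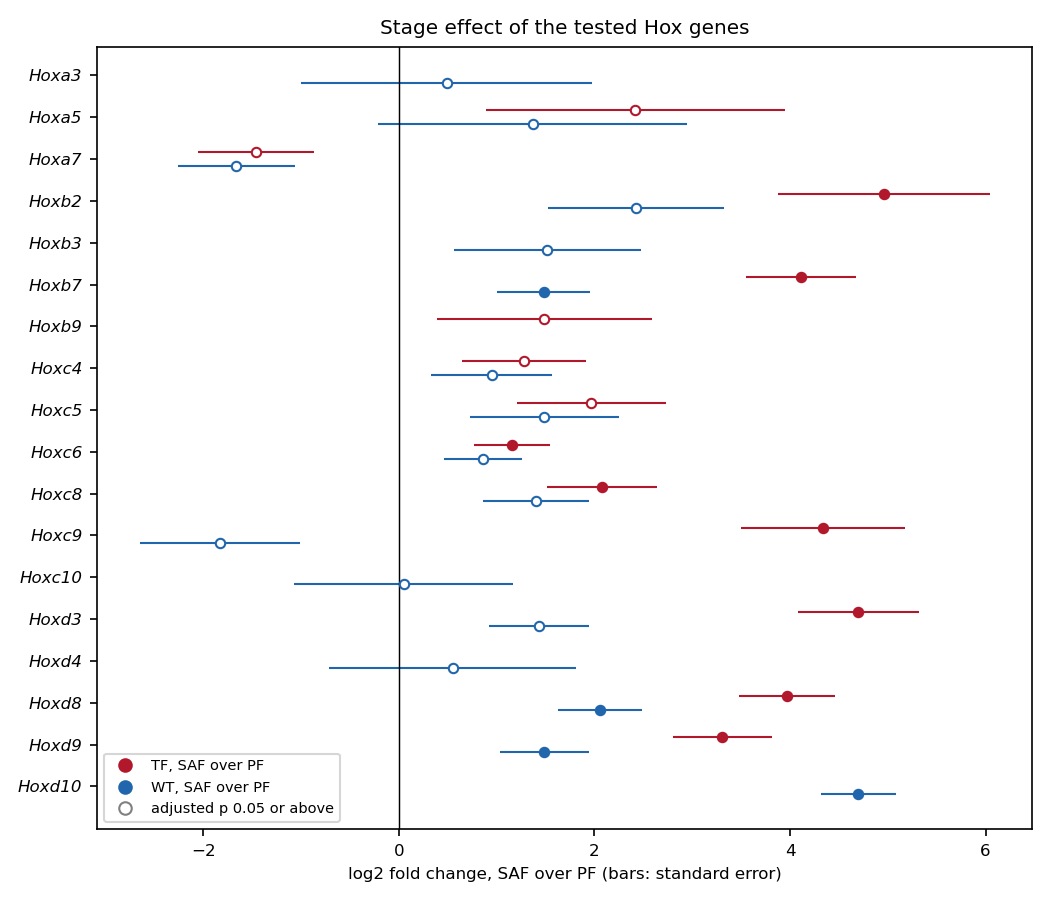
Log2 fold change of SAF over PF (bars, standard error) in TF (red) and WT (blue) for the 18 tested members with more than 3 counts in each of the groups compared; filled points passed the adjusted p threshold of 0.05, and Hoxd10 has no TF point. Hoxc9 lies at 4.34 in TF and -1.83 in WT, and Hoxa7 is below 0 in both.

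Among Hoxb members, Hoxb7, best known from the ureteric bud of the kidney, had 15.9 and 16.9 CPM in SAF-TF, against 0.443 and 1.40 CPM in PF-TF, and 12.5 and 13.5 CPM in SAF-WT, against 3.28 and 5.99 CPM in PF-WT. SAF and PF libraries were apart in both sources. Hoxb7 rose by 4.11 ± 0.56 (adjusted p = 0.000406) in TF and by 1.48 ± 0.48 (adjusted p = 0.0387) in WT. The WT call of Hoxb7 was lost with PF-WT replicate 1 or any of the 4 SAF libraries left out, with adjusted p-values of 0.0652 to 0.128. Hoxb2, a hindbrain segmentation gene, had 9.46 and 4.29 CPM in SAF-TF, against 0 and 0.401 CPM in PF-TF, and 3.21 and 8.89 CPM in SAF-WT, against 1.71 and 0.555 CPM in PF-WT. Its SAF libraries differed from each other within each source but stayed above the PF libraries. Hoxb2 rose by 4.96 ± 1.08 (adjusted p = 0.00513) in TF and had a change of 2.43 ± 0.90 (adjusted p = 0.0613) in WT. Hoxb3 had 26 counts in SAF-TF and 1 in PF-TF, a ratio of 27.5 with a 95% counting interval of 4.52 to 1130 (adjusted p = 0.0147). That call was lost with SAF-TF replicate 1 or 2 or PF-TF replicate 2 left out (adjusted p of 0.0963, 0.064 and 0.0683). Hoxb4 had no count in PF-WT and was at least 3.39-fold higher in SAF-WT (adjusted p = 0.0339). That call was lost with any library but those of PF-TF left out, with adjusted p-values of 0.0639 to 0.151. Hoxb3 and Hoxb4 reached the low-count filter's 10 counts in SAF libraries alone, so the filter admitted them for the level under test. Hoxb2 reached 10 counts in all SAF libraries but, among PF libraries, only in PF-WT replicate 1. Its passing thus also rested on its SAF level, and its tests carry that limit. The remaining Hoxb members had at most 20 counts in any library.

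Among Hoxc members, Hoxc8, a thoracic patterning gene, had 18.5 and 21.4 CPM in SAF-TF, against 7.09 and 2.41 CPM in PF-TF, and 26.5 and 24.3 CPM in SAF-WT, against 5.25 and 13.9 CPM in PF-WT. It rose by 2.08 ± 0.56 (adjusted p = 0.0141) in TF, and its WT change was 1.40 ± 0.54 (adjusted p = 0.0682). Without SAF-TF replicate 2 the TF value was 1.97 (adjusted p = 0.0573). Both sources had their SAF libraries above their PF libraries. Hoxc6, expressed in the forelimb and upper trunk, had 17.8 and 12.5 CPM in SAF-TF, against 6.65 and 6.92 CPM in PF-TF, and 11.1 and 12.7 CPM in SAF-WT, against 4.73 and 8.32 CPM in PF-WT. Hoxc6 rose by 1.16 ± 0.39 (adjusted p = 0.0381) in TF, among the smallest changes called, and the WT change was 0.86 ± 0.40 (adjusted p = 0.12). The TF call of Hoxc6 was lost with any library left out except those of PF-WT, with adjusted p-values of 0.0571 to 0.223. Hoxc4 had 4.29 and 4.85 CPM in SAF-TF, against 2.66 and 1.10 CPM in PF-TF, and 5.16 and 5.92 CPM in SAF-WT, against 1.58 and 4.11 CPM in PF-WT. Hoxc5 had 7.37 and 3.95 CPM in SAF-TF, against 1.88 and 1.00 CPM in PF-TF, and 2.18 and 6.40 CPM in SAF-WT, against 0.788 and 2.22 CPM in PF-WT. Neither Hoxc4 nor Hoxc5 passed the test within a source, and the WT libraries of Hoxc5 overlapped.

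Hoxa7 ran the other way. This member of the Hoxa cluster had 3.74 and 4.74 CPM in SAF-TF, against 9.52 and 13.8 CPM in PF-TF, and 6.31 and 1.42 CPM in SAF-WT, against 13.9 and 10.7 CPM in PF-WT. All 4 PF libraries lay above all 4 SAF libraries. Its log2 change was -1.46 ± 0.59 (adjusted p = 0.073) in TF and -1.66 ± 0.60 (adjusted p = 0.0564) in WT. In the additive model over both sources Hoxa7 fell by 1.56 on the log2 scale (SE 0.43, adjusted p = 0.0132). Without PF-TF replicate 2 that adjusted p was 0.051. Its direction was the same under every scaling tried. Exons of Hoxa7 share 586 bases with Hoxaas3 on the opposite strand, so without strand reads of the pair cannot be told apart. The other Hoxa members had at most 13 counts in any library.

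Over both sources, 12 of 19 tested members passed the test, 11 higher in SAF and Hoxa7 lower, where 19.7% of tested genes were higher, 29.5% lower and 49.2% either. Beyond those already named in TF, Hoxb4 and Hoxc5 passed. Hoxb3, Hoxb4 and Hoxd11 reached 10 counts in SAF libraries alone. Hoxb2 reached 10 counts in all SAF libraries but, among PF libraries, only in PF-WT replicate 1. The filter's limit given for TF thus holds here too. Of the 12, besides Hoxa7, the calls of Hoxb3, Hoxb4, Hoxc5 and Hoxc6 were each lost with at least 1 library left out: Hoxb3 with SAF-TF replicate 1 or 2, PF-TF replicate 1 or 2 or SAF-WT replicate 2, Hoxb4 with SAF-TF replicate 1 or PF-WT replicate 2, Hoxc5 with SAF-TF replicate 1 or SAF-WT replicate 2, and Hoxc6 with SAF-TF replicate 1. Their highest adjusted p-values were then 0.082, 0.0658, 0.0934 and 0.0509. Hoxc9 and Hoxc10 did not pass here. In the authors' deposited table for TF, at an FDR under 0.05 of a test whose name no label gives, 13 of 27 members without Hoxd10 were higher and Hoxa7 was lower in SAF-TF, where 24.0% of all genes in that table were higher and 16.7% lower. In the authors' deposited table for WT, 10 were higher, and Hoxa7 and Hoxc9 were lower, where 20.7% of its genes were higher and 14.0% lower.

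Hoxc9, a thoracic gene of spinal cord patterning, was the member whose stage effect differed between sources. It had 10.2 and 12.1 CPM in SAF-TF, against 0.997 and 0.10 CPM in PF-TF. It had 0.459 and 0.948 CPM in SAF-WT, against 1.71 and 3.33 CPM in PF-WT. SAF-TF stood above the other 3 groups, and in WT the PF libraries were the higher ones. In counts the groups held 200, 10, 12 and 43 in the order SAF-TF, PF-TF, SAF-WT and PF-WT. Hoxc9 rose with stage in TF by 4.34 ± 0.84 (adjusted p = 0.00266), while its WT change was -1.83 ± 0.82 (adjusted p = 0.11). The difference between these stage effects was 6.17 ± 1.16 on the log2 scale (adjusted p = 0.0457 over all genes). Hoxc9 was the only called member of 19, where 0.658% of tested genes were called in that direction, 0.245% in the other and 0.904% in either, and 6 members had an unadjusted p under 0.05.

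Between sources at the small antral stage, Hoxc9 was higher in SAF-TF than in SAF-WT by 3.96 ± 0.82 on the log2 scale (adjusted p = 0.0197). It was the only called member of 19, where 4.61% of tested genes were called higher, 5.34% lower and 9.96% either way. This contrast shares the SAF-TF libraries with the TF stage contrast. Leaving out SAF-TF replicate 1 or 2 or SAF-WT replicate 1 or 2 gave log2 differences of 3.54 to 4.56 with adjusted p-values of 0.0651 to 0.153. The interaction lost its call in the same 4 cases and when PF-WT replicate 2 was left out, with adjusted p-values of 0.0688 to 0.133. The TF and WT libraries come from separate deposited tables, so source and table cannot be told apart.

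The Hoxc9 difference between SAF-TF and SAF-WT stood beside a different set of markers. Stroma marker sums, given above, were lower in SAF-TF than in SAF-WT, and 4 of 10 stroma markers were called lower there. Of 7 tested theca markers 5 were called lower and 1 higher. Over all tested genes 5.34% were called lower and 4.61% higher. All 10 luteal markers were called higher in SAF-TF, with a sum of 26900 to 37600 CPM in SAF-TF, against 3430 to 4140 CPM in SAF-WT, and 1710 to 2940 CPM in PF-TF, against 772 to 1060 CPM in PF-WT. Of 8 macrophage markers, 4 were called higher, with 1070 to 1440 CPM in SAF-TF, against 261 to 338 CPM in SAF-WT. No luteal or macrophage marker was at 0 in both libraries of any group. The part of these in the Hoxc9 difference was not tested. Markers of neighbouring tissues were also measured. The 4 uterus markers with a row summed to 36.3 to 72.3 CPM in SAF-TF, 33.7 to 43.7 CPM in PF-TF, 35.7 to 49.8 CPM in SAF-WT and 33.8 to 40.4 CPM in PF-WT. Oviduct markers summed to 149 to 204 CPM in SAF-TF, 689 to 821 CPM in PF-TF, 127 to 187 CPM in SAF-WT and 565 to 608 CPM in PF-WT. Kidney tubule markers summed to at most 7.63 CPM in any library.

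Hoxc10, Hoxa9 and Hoxa10, of paralog groups 9 and 10, also had both SAF-TF libraries above those of the other 3 groups, at low counts. This order was not particular to these paralog groups, since Hoxb7, Hoxd3 and Hoxd4 had it too. The share of all genes with this order was not counted. Hoxc10, a lumbar patterning gene, had 4.07 and 5.86 CPM in SAF-TF, against 0 and 0.301 CPM in PF-TF, and 0.574 and 0.592 CPM in SAF-WT, against 1.05 and 0.111 CPM in PF-WT. Against 3 counts in PF-TF the ratio was 31.4 (10.4 to 155; adjusted p = 0.00976), and without SAF-TF replicate 2 the adjusted p was 0.0613. Its SAF-TF counts were 89 in all, against 10 in SAF-WT, a ratio of 8.50 with a counting interval of 4.41 to 18.3, and the adjusted p was 0.0929. Hoxa9 had 11 and 8 counts in SAF-TF, against 2 and 0 in SAF-WT, a ratio of 9.08 (2.19 to 80.4), with 0 and 4 in PF-TF and 3 and 0 in PF-WT. Hoxa10 had 8 and 10 counts in SAF-TF, against 0 and 0 in SAF-WT, at least 2.87-fold, with 0 and 5 in PF-TF and 0 and 3 in PF-WT. Hoxa9 and Hoxa10 did not pass the low-count filter and were not tested. Hoxc10 reached the filter's 10 counts in SAF-TF libraries alone, so its tests were of a gene admitted for its level there. Hoxd9, Hoxd10 and Hoxb9, of the same paralog groups, had overlapping SAF-TF and SAF-WT libraries.

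**Figure D4:**
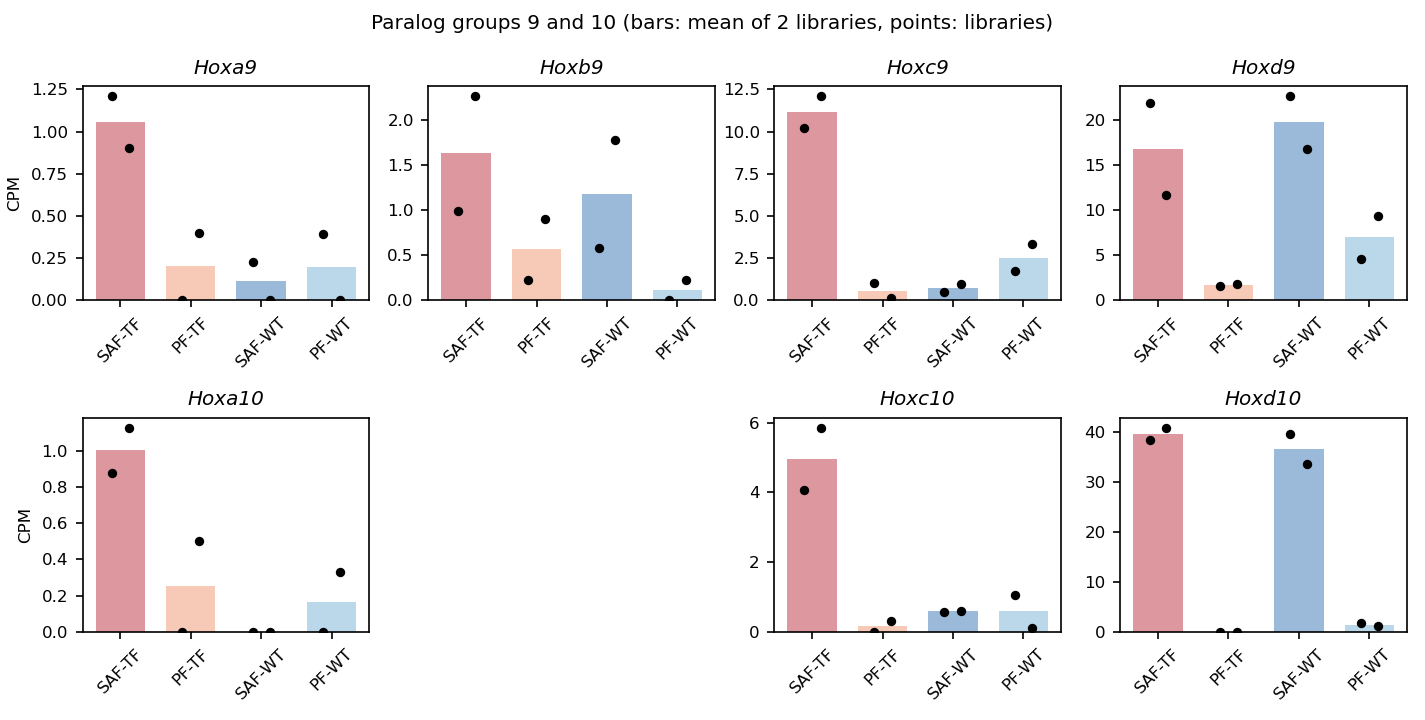
CPM of the 7 members of paralog groups 9 and 10 in SAF-TF, PF-TF, SAF-WT and PF-WT; bars start at 0 and give the mean of 2 libraries, points give each library, and each panel has its own axis. In the Hoxc9 and Hoxc10 panels SAF-TF stands above the other 3 groups, while in the Hoxd9 and Hoxd10 panels both SAF groups are high.

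Of 27 members, 8 had both SAF-TF libraries above both SAF-WT libraries (28.4% of all genes) and 5 had both below (29.8%). The 8 included Hoxa9, Hoxa10, Hoxb7, Hoxc9, Hoxc10, Hoxd3 and Hoxd4. Those below were Hoxb5, Hoxb6, Hoxc4, Hoxc8 and Hoxd8. For Hoxd8 the log2 difference was -0.73 ± 0.42 (adjusted p = 0.274).

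At the preantral stage no member of 19 passed the test between sources, where 0.0669% of tested genes were higher, 0.151% lower and 0.218% either, and 5 had an unadjusted p under 0.05. Hoxd8, Hoxd3, Hoxb7 and Hoxd9 had the nearest values, with log2 differences of PF-TF over PF-WT of -2.64 ± 0.48 and -3.02 ± 0.62 (adjusted p = 0.058 for each), -2.30 ± 0.56 (adjusted p = 0.0744) and -2.05 ± 0.51 (adjusted p = 0.0754). DESeq2 called these 4, all lower in PF-TF, and edgeR without the low-count filter called Hoxd3 and Hoxd8. DESeq2 called 5.38% of tested genes lower in this contrast, and edgeR without the filter 0.777%. With PF-TF replicate 2 left out Hoxd8 was also called (adjusted p = 0.0435), as with PF-WT replicate 2 left out (adjusted p = 0.0461). Of 27 members, 9 had both PF-TF libraries below both PF-WT libraries (25.3% of all genes) and 0 had both above (20.5%). Over both stages no member passed, where 2.16% of tested genes were higher, 5.65% lower and 7.81% either, and 2 had an unadjusted p under 0.05. DESeq2 and edgeR with RLE factors each called Hoxd8 there, lower in TF, where they called 10.8% and 6.18% of tested genes lower.

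Of 9 tested genes for partners of Hox proteins, 1 rose and 1 fell in TF, and 2 rose and 1 fell in WT. Over all tested genes, 18.2% rose and 25.0% fell in TF, and 12.7% rose and 22.5% fell in WT. Meis2 fell in both sources, and Meis1 rose in WT. Meis2 had 17.6 and 13.2 CPM in SAF-TF, against 266 and 238 CPM in PF-TF, and 14.5 and 15.3 CPM in SAF-WT, against 487 and 223 CPM in PF-WT. Its log2 change was -4.03 ± 0.37 (adjusted p = 5.3e-05) in TF and -4.58 ± 0.38 (adjusted p = 6.18e-05) in WT. Meis1 changed by 1.94 ± 0.44 (adjusted p = 0.00851) in WT. No cofactor was called between sources.

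Of 20 Polycomb genes, whose products keep Hox clusters silent, 1 rose and 6 fell in TF, and 0 rose and 6 fell in WT, where 18.2% of all tested genes rose and 25.0% fell in TF, and 12.7% rose and 22.5% fell in WT. The 6 that fell are near the share over all genes in both sources. Ezh2, the histone H3 lysine methyltransferase of Polycomb, changed by -1.96 ± 0.22 (adjusted p = 0.000161) in TF and -1.44 ± 0.22 (adjusted p = 0.00115) in WT. Phc2 and Eed also fell in both sources, and Cbx6, named after its value was seen, was the gene that rose in TF. Of 12 trithorax genes and related activators, 5 fell in TF and 3 in WT, and none rose, against the same shares over all genes. Wdr5, a shared subunit of the methyltransferase complexes, changed by -2.10 ± 0.29 (adjusted p = 0.000435) in TF and -1.77 ± 0.29 (adjusted p = 0.00162) in WT. The median log2 change was -0.52 for Polycomb genes in each source, and -0.75 in TF and -0.72 in WT for trithorax genes, against -0.08 and -0.20 over all tested genes.

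Within and beside the clusters, 3 of 19 noncoding genes sought had a row. Hoxd3os1, antisense to Hoxd3, had 20 and 26 counts in SAF-TF, against 0 and 0 in PF-TF, and 20 and 22 in SAF-WT, against 5 and 10 in PF-WT. It followed the pattern of Hoxd3, with which it shares 347 exon bases. Of the 2 noncoding genes tested, Hoxd3os1 was called in TF alone (adjusted p = 0.0021, against 0.173 in WT). The other, 5730457N03Rik, was called lower in both sources (adjusted p = 0.0104 in TF and 0.0283 in WT). It had 1 and 0 counts in SAF-TF, against 20 and 27 in PF-TF, and 0 and 0 in SAF-WT, against 8 and 5 in PF-WT. Evx1, which lies beside the Hoxa cluster, had 2 and 1 counts in SAF-TF, against 163 and 31 in PF-TF, and 0 and 3 in SAF-WT, against 3 and 28 in PF-WT, and it fell in TF (adjusted p = 0.00737). Both 5730457N03Rik and Evx1 reached the low-count filter's 10 counts in PF libraries alone, so the filter admitted them for their PF level. Hoxd3os1 reached 10 counts in all SAF libraries but in only a single PF library, so its passing also rested on its SAF level. The tests of these genes carry that limit. Of the 10 flanking genes with a row, 1 rose and 2 fell in TF, and 1 rose and 1 fell in WT. The shares over all tested genes were 18.2% and 25.0% in TF, and 12.7% and 22.5% in WT. Atp5g3, a subunit of the ATP synthase beside the Hoxd cluster, rose in both sources, and Skap1, beside the Hoxb cluster, fell in both. Mtx2, which also flanks the Hoxd cluster, had 202 and 244 CPM in SAF-TF, against 179 and 184 CPM in PF-TF, and 353 and 298 CPM in SAF-WT, against 195 and 262 CPM in PF-WT, and was not called within either source.

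Of 3 tested relatives outside the clusters, 2 fell in SAF in both sources, where 25.0% of all tested genes fell in TF and 22.5% in WT. These 2, Gbx2 and Pdx1, reached the low-count filter's 10 counts in PF libraries alone, so the filter admitted them for their PF level. Gbx2, a homeobox gene of the midbrain-hindbrain border, had 0.44 and 0 CPM in SAF-TF, against 91.5 and 50.1 CPM in PF-TF, and 0.459 and 0.711 CPM in SAF-WT, against 24.4 and 25.2 CPM in PF-WT. Pdx1, the pancreatic ParaHox gene, was at 0.11 and 0 CPM in SAF-TF, against 3.21 and 4.42 CPM in PF-TF, and 0 and 0.355 CPM in SAF-WT, against 9.98 and 3.66 CPM in PF-WT. Gbx1, the only other relative with a row of the 9 sought, was not called.

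Retinoic acid is a known inducer of Hox genes. Of 13 tested genes of its pathway, 6 rose and 1 fell in TF, where 18.2% of all tested genes rose and 25.0% fell. In WT 3 rose and 2 fell, where 12.7% of all tested genes rose and 22.5% fell. Aldh1a1, a retinaldehyde dehydrogenase, changed by 4.03 ± 0.50 (adjusted p = 0.000242) in TF and 2.47 ± 0.47 (adjusted p = 0.00332) in WT. Rdh10, which oxidises retinol, fell, with -2.72 ± 0.38 (adjusted p = 0.000458) in TF and -2.07 ± 0.37 (adjusted p = 0.00243) in WT. Between sources, Aldh1a2 was higher in SAF-TF than in SAF-WT by 1.69 ± 0.45 (adjusted p = 0.0443).

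Of 14 tested urogenital patterning genes, 6 rose and 2 fell in TF, where 18.2% of all tested genes rose and 25.0% fell. In WT 7 rose and 2 fell, where 12.7% of all tested genes rose and 22.5% fell. Nr2f2, a nuclear receptor of ovarian interstitial cells, changed by 3.22 ± 0.34 (adjusted p = 0.000112) in TF and 2.76 ± 0.33 (adjusted p = 0.000338) in WT. This gene is also on the theca marker list. Tcf21, a mesenchymal transcription factor that is also on the stroma marker list, changed by 4.72 ± 0.56 (adjusted p = 0.000195) in TF and 3.38 ± 0.51 (adjusted p = 0.00113) in WT. Osr2 rose in both sources as well. Wnt4, a ligand of ovarian development, had 119 and 66.1 CPM in SAF-TF, against 3.56 and 5.81 CPM in SAF-WT, a log2 difference of 4.31 ± 0.86 (adjusted p = 0.0182), and was the only gene of this list called in that contrast.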

How the data were processed

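The libraries were single follicles of mouse ovary, prepared with the SMARTer Ultra Low Input kit from polyadenylated RNA, per the labels' protocols. The submitters' processing notes name HISAT2 2.0.1 and GRCm38. Neither the counting tool nor the gene annotation or strand setting is stated there. Per the file headers, the authors deposited raw counts per gene and library, in 1 table for TF and 1 for WT. Their normalized signal, as deposited by the authors, is a group mean after a scale factor per library. The log2 column deposited by the authors compares SAF with PF. The deposited FDR column holds p-values that the authors adjusted, from a test without a name in the headers.

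Counts of the 21997 shared genes in 8 libraries entered 1 edgeR 4.0.16 fit (R 4.3.3) scaled by TMM. The filter was filterByExpr with min.count 10 and min.total.count 15, given the groups, and left 17925 genes. The quasi-likelihood F test used 1 mean per group and 4 residual degrees of freedom. Contrasts over both sources or stages came from stage and source without interaction, with 5 degrees of freedom. The common biological coefficient of variation was 0.303. P-values were adjusted by Benjamini-Hochberg across the whole table, and 0.05 was the threshold. The fit was tested on simulated data. Standard errors are the log2 change divided by the square root of F. A group at 0 was compared at 3 counts per library, and groups of 1 to 3 counts are given as ratios with exact 95% intervals.

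The members, gene lists and tests were chosen with earlier results of these data known. Every member may be named; those of at least 5 CPM in a group are given per library, and up to 3 genes per list and contrast with the smallest p. Hoxd10 was left out of every contrast with TF libraries, also that of PF. Alternatives were RLE factors, the authors' scale factors, no filter, min.count 30, DESeq2 1.42.0, a fit of just the 4 libraries of a contrast, a block for replicate number, and leaving out each library. Sequences came from RefSeq promoter entries and GENCODE M21 transcripts. A few genes and sequences are not reported here.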

Additional observations from a re-analysis of the deposited data

Results flagged for a closer look

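The stage effect of Hoxc9 differed between sources by a test of the difference itself: it was 6.17 higher on the log2 scale in TF than in WT (SE 1.16, adjusted p = 0.0457 by edgeR over all 17925 genes). In TF, Hoxc9 had 93 and 107 counts at the SAF stage, against 9 and 1 at the PF stage. In WT it had 4 and 8 counts at the SAF stage, against 13 and 30 at the PF stage. Over all alternatives the difference lay between 5.38 and 8.49, with adjusted p-values of 0.000177 to 0.133.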

How the results depend on the processing

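For the 49 gene results printed with a test, 690 alternative values gave 0 reversals, 57 lost the threshold and 49 newly passed it. Leaving out each library in turn gave 6 to 13 members called for the stage effect in TF, 2 to 10 in WT and 9 to 15 over both sources, 0 to 1 for the source effect in PF and in SAF, 0 to 0 over both stages, and 0 to 2 for the interaction. A lone library left in a group is assumed to vary like those of the other groups. By DESeq2 the counts were 9 for the stage effect in WT, 4 for the source effect in PF, 3 for the interaction and 1 for the source effect over both stages. With RLE factors they were 8 in WT and 1 for the source effect over both stages, and with the authors' scale factors 10 in WT. Without the filter, 2 were called for the source effect in PF, and with only the 4 libraries compared, 2 for the source effect in SAF. Calls over all genes rose too in these fits. The fit of 4 libraries called 3921 of 15467 genes in SAF, against 1785 of 17925 in the main fit. Without the filter 207 of 21997 genes were called in PF, against 39 of 17925. DESeq2 called 1281 genes in PF and 810 for the interaction, against 39 and 162 in the main fit. Members above the floor numbered 15 in PF-TF where 1 library sufficed and 11 in SAF-WT at 10 counts.

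RLE factors moved the median log2 stage change of all genes by 0.12 in TF and 0.16 in WT, and the authors' factors by 0.35 and 0.34; with the authors' factors 56.2% of calls in TF and 53.5% in WT were higher, against 42.1% and 36.0% with TMM. The replicate block gave 3 members called for the stage effect in WT and 0 for the interaction (Hoxc9 adjusted p = 0.0898). Correlations of same-numbered libraries' deviations ran from -0.105 to 0.0911, so the numbers did not pair the samples. Crossing the PF numbers, chosen after seeing the data, gave 0 called for the source effect in PF. The causes of these differences were not tested. With 2 libraries a group, members of few counts could not be told apart from background at this depth.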
